A study of Mus musculus with 9 samples.

Results

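The genes described here set the balance of phosphate and pyrophosphate around cartilage cells, together with osteopontin, a matrix protein that binds mineral. They are Spp1, Enpp1, Ank, Alpl, Slc20a1, Slc20a2, Phospho1 and Nt5e. All 8 were found by symbol among the 52550 genes of the deposited count table. The set was chosen by the levels of its members in FMK against DMSO, where Spp1, Enpp1 and Ank stood out in an earlier look at these libraries. Values of that comparison are therefore given for these genes as a description, with no test. RNA was taken from micromass cultures, dense drops of mouse forelimb cells from embryonic day 12, in which limb cells form cartilage. The 9 libraries fell into 3 groups of 3 biological replicates. FMK cultures received 100 µM Z-VAD-FMK and OPH cultures received 100 µM Q-VD-OPH, both inhibitors of a broad range of caspases, and DMSO cultures received the vehicle. Treatment lasted 6 days, with fresh medium and agent every second day. All 3 groups shared a medium with serum, 50 µg/ml ascorbic acid and 10 mM β-glycerophosphate, a phosphate donor used to promote mineral. The labels name no strain and do not say whether libraries with the same number share a litter or a day. Mineral itself was not among the measurements used here.

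Mineral in cartilage and bone is calcium phosphate, and inorganic pyrophosphate blocks the growth of its crystals. Enpp1 makes pyrophosphate from extracellular nucleotides, and ANK, the product of Ank, moves it or its precursors out of the cell. Alpl encodes the tissue-nonspecific alkaline phosphatase, which splits pyrophosphate into phosphate, and Phospho1 releases phosphate inside matrix vesicles. Nt5e encodes CD73, which turns AMP into adenosine and phosphate, and Slc20a1 and Slc20a2 encode the sodium-phosphate cotransporters PiT-1 and PiT-2. Osteopontin, from Spp1, is an acidic phosphoprotein that slows crystal growth and also binds integrins and CD44 on cells.

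The promoter windows of Spp1, Enpp1 and Slc20a1 are shown because these genes had the largest differences and divided by which inhibitor they differed with. Each runs 5′ to 3′ on the gene's strand, from 250 bases before to 50 after a start site (RefSeq, GRCm38.p6). Capitals mark the letters of 5 motifs searched on both strands. TGTGGT is the core that RUNX factors bind, of which RUNX2 acts in hypertrophic cartilage and bone. CACGTG is the E-box bound by some basic helix-loop-helix factors. TATAAA is the TATA box of many promoters with a sharp start site. The other two were the AP-1 motif, TGA and then TCA after any 1 base, and the ISRE (interferon-stimulated response element), in which GAAA is repeated after any 2 bases. The windows are chr5:104434861-104435160 on the plus strand for Spp1, chr10:24712110-24712409 on the minus strand for Enpp1 and chr2:129198523-129198822 on the plus strand for Slc20a1.
Spp1: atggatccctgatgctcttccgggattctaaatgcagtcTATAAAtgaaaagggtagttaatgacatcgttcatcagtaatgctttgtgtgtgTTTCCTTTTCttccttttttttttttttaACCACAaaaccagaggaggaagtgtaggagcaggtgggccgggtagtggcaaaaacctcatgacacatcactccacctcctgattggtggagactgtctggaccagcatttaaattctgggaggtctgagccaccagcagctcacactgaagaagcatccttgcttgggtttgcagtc
Enpp1: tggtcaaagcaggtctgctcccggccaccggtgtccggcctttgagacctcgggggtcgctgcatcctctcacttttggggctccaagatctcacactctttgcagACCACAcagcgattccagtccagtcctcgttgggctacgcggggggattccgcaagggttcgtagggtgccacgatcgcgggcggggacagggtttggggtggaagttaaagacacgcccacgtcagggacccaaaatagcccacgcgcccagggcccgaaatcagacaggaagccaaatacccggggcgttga
Slc20a1: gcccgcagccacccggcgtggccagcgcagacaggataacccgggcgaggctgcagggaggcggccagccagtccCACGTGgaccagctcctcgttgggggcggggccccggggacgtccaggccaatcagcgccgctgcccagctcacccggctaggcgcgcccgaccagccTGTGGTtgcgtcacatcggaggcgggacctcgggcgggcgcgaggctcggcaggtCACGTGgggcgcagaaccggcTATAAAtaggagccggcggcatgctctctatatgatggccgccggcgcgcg
All 3 windows shown hold the RUNX core letters, as do 16.8% of the 32851 windows of the table. They begin 128 bases before the start in Spp1 and 144 bases before it in Enpp1, both on the opposite strand, and 77 bases before it in Slc20a1. The Spp1 window also holds the ISRE letters, found in 3.44% of all windows, and the TATA box letters, found in 13.6%. The Slc20a1 window holds the E-box letters at 2 places, 175 and 22 bases before the start (7.15% of all windows hold them), and TATA box letters that begin 1 base before it. GC content was 45.3% in the Spp1 window, 61.7% in the Enpp1 window and 73% in the Slc20a1 window, beside a median of 52.7% over all windows. Second windows of Spp1 (36.7% GC) and Slc20a1 (52% GC), at other start sites, hold none of the 5 motifs. Windows were found for 7 of the 8 genes, with Slc20a2 the exception, and those of Ank and Nt5e hold no match. A match is a run of letters and not a measured binding site.

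Libraries held 5659789 to 6867350 counts, and 13255 genes were tested. Libraries were made from transcript 3′ ends, and levels were not compared between genes. The labels name the tissue as chondroblasts from limb, and chondrocyte markers were present in every library. The 16 markers of that list summed to 1771 to 1896 CPM (counts relative to the scaled library size) in FMK libraries, 1650 to 2828 CPM in OPH libraries and 3459 to 4901 CPM in DMSO libraries. Osteoblast markers were at the edge of detection: Bglap2 had 0 counts in all 9 libraries, and Ibsp had 3 counts in FMK libraries, 5 in OPH libraries and 11 in DMSO libraries. The 19 macrophage markers summed to 31.1 to 49.5 CPM in FMK libraries, 231 to 272 CPM in OPH libraries and 1442 to 2745 CPM in DMSO libraries. Of these 19, 19 were called lower in FMK against DMSO, 18 in OPH against DMSO and 15 in FMK against OPH, and 0 were without counts in all libraries of a group. The 9 osteoclast markers summed to 82.6 to 93.7 CPM with FMK, 57.9 to 74.6 CPM with OPH and 154 to 408 CPM with DMSO. The 11 adipocyte markers summed to 114 to 205 CPM in FMK libraries, 739 to 2871 CPM in OPH libraries and 493 to 2529 CPM in DMSO libraries, and 6 of them were called lower in FMK against DMSO (median log2 fold change -4.61) and 2 in FMK against OPH by edgeR. Their sum was lowest in the FMK libraries, where Spp1, Enpp1 and Ank were highest, and their part in those levels was not tested. Within each group, the library numbered 3 had the lowest adipocyte sum and the highest skeletal muscle sum of its group. In bulk RNA, fewer cells of a type and less RNA per cell cannot be told apart.

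**Figure D1:**
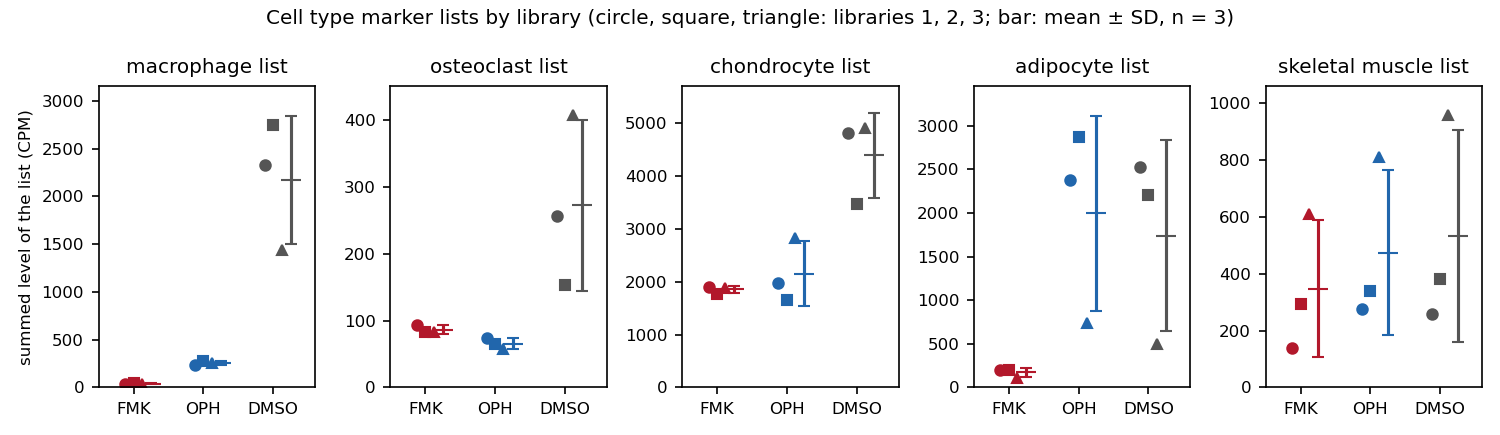
Summed level, in CPM, of 5 lists of cell type markers in each library, by group (FMK, OPH, DMSO), with the mean and SD of 3 libraries. Macrophage sums were 31.1 to 49.5 CPM in FMK libraries, 231 to 272 CPM in OPH libraries and 1442 to 2745 CPM in DMSO libraries, and library 3 (triangle) stands apart in the adipocyte and skeletal muscle panels.

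Osteopontin RNA was abundant in FMK cultures and low in both other groups. Spp1 (ENSMUSG00000029304, GRCm38 chromosome 5, 104435118 to 104441050, plus strand) had 798, 510 and 323 CPM in FMK libraries 1 to 3. It had 33.7, 24.97 and 32.8 CPM in OPH libraries, and 23.4, 18.8 and 25.1 CPM in DMSO libraries. Every FMK library lay above all 6 others, and OPH and DMSO libraries overlapped. The spread within FMK was wide, with a coefficient of variation of 44.1%, against 15.8% in OPH and 14.4% in DMSO. FMK library 3, the lowest of its group, still stood 12.9-fold above its DMSO library of the same number, and libraries 1 and 2 stood 34.04-fold and 27.1-fold above theirs. The fitted log2 fold change was 4.59 ± 0.39 (SE) for FMK against DMSO. For OPH against DMSO it was 0.44 ± 0.38, with a 95% interval of -0.49 to 1.36 (edgeR quasi-likelihood test, adjusted p = 0.538). Set against the DMSO library of the same number, the OPH libraries were at 1.44, 1.33 and 1.31 times its level, and the fit with the replicate block gave 0.43 ± 0.39 (edgeR adjusted p = 0.535).

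FMK against OPH set the inhibitors side by side at the same dose and time. Z-VAD-FMK carries a fluoromethyl ketone and Q-VD-OPH a difluorophenoxymethyl ketone as the group that reacts with the caspase, and the peptide parts and end caps of the molecules differ too. Spp1 was 4.16 ± 0.38 higher in FMK than in OPH cultures on the log2 scale (95% interval 3.24 to 5.07, edgeR adjusted p = 0.00171). That test uses the same FMK libraries that singled out the gene, so it is not independent of how the gene was chosen. The authors' deposited table gives smaller log2 fold changes for Spp1, 3.805 for FMK against DMSO and 3.46 for FMK against OPH. Macrophages and osteoclasts are known sources of osteopontin, and their marker sums were lower in FMK than in DMSO libraries while Spp1 was higher. Between the inhibitors the lists differed. The macrophage sum was lower in FMK (31.1 to 49.5 CPM) than in OPH libraries (231 to 272 CPM). The osteoclast sum was higher in FMK (82.6 to 93.7 CPM) than in OPH libraries (57.9 to 74.6 CPM). Their part in the Spp1 levels was not tested.

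Enpp1 and Ank were also highest in FMK cultures. Enpp1 (ENSMUSG00000037370, chromosome 10, 24637914 to 24712159, minus strand) had 62.1, 59.7 and 49.5 CPM in FMK libraries. It had 10.4, 10.5 and 14.4 CPM in OPH libraries, and 13.5, 13.2 and 12.6 CPM in DMSO libraries. The FMK libraries lay above all others, and the OPH libraries lay on both sides of the DMSO libraries. The log2 fold change was 2.12 ± 0.16 for FMK against DMSO, a 4.36-fold difference. It was 2.28 ± 0.16 for FMK against OPH (edgeR adjusted p = 5.71e-07, with the FMK libraries shared as above). For OPH against DMSO it was -0.16 ± 0.17 (95% interval -0.53 to 0.20, edgeR adjusted p = 0.610).

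Ank (ENSMUSG00000022265, chromosome 15, 27466677 to 27594909, plus strand) differed less, and its FMK libraries were close together. It had 76.4, 75.2 and 71.9 CPM in FMK libraries, 36.6, 30.9 and 40.7 CPM in OPH libraries, and 42.7, 40.2 and 53.9 CPM in DMSO libraries. FMK libraries lay above the rest, and OPH and DMSO libraries overlapped by a narrow margin. The log2 fold change was 0.71 ± 0.13 for FMK against DMSO and 1.05 ± 0.13 for FMK against OPH (edgeR adjusted p = 9.63e-05, FMK libraries shared as above). OPH against DMSO gave -0.34 ± 0.13, which did not pass in the fit without pairing (edgeR adjusted p = 0.0986). It passed as lower with the replicate number as a block (log2 fold change -0.34, edgeR adjusted p = 0.0434), and each OPH library was at 0.755 to 0.857 of its DMSO library of the same number. The 3′ end of Ank lies within Otulin, a gene on the opposite strand. Otulin had 449 counts in FMK, 554 in OPH and 587 in DMSO libraries, and it was not called in any of the 3 comparisons. Whether the counting used the strand is not given in the sources used here.

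**Figure D2:**
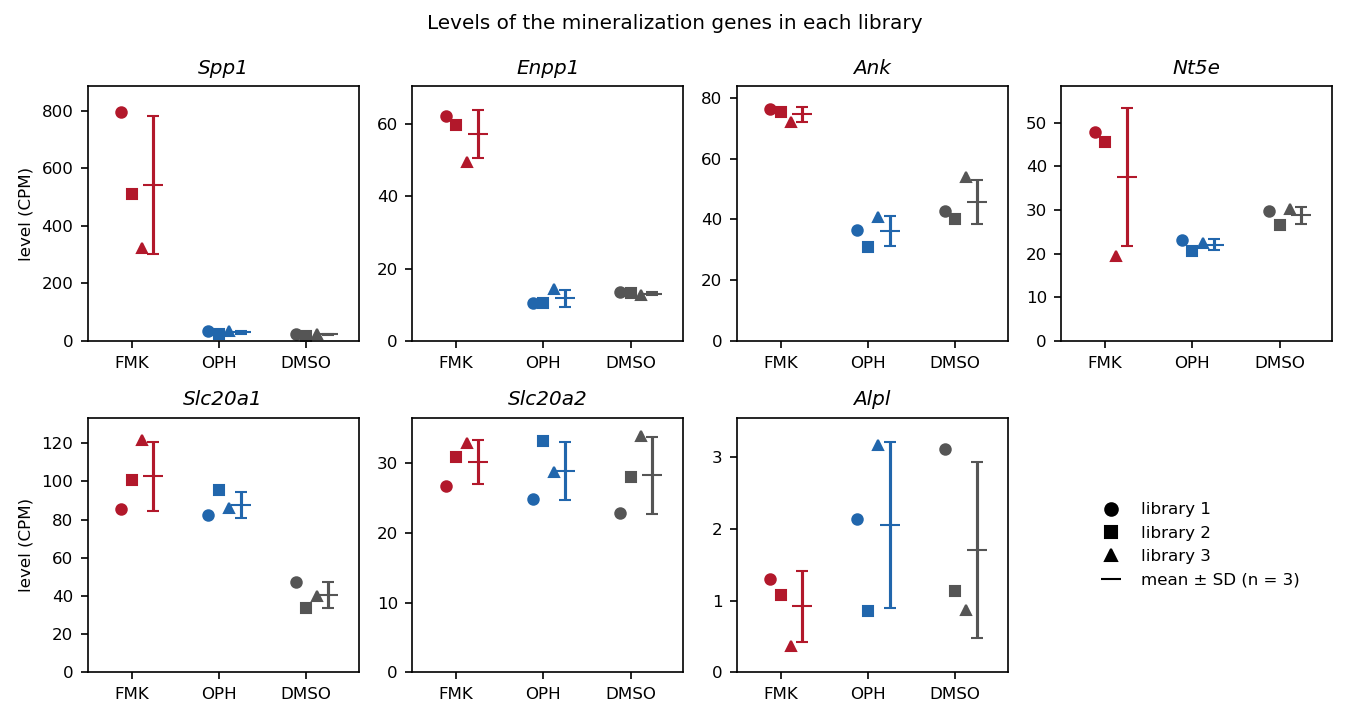
Level of 7 of the genes, in CPM, in each library of FMK, OPH and DMSO cultures (circle, square and triangle are libraries 1, 2 and 3), with the mean and SD of 3 libraries beside them. Spp1, Enpp1 and Ank are high in the FMK libraries alone, and Slc20a1 is above the DMSO libraries in both inhibitor groups. Phospho1, with 0 counts in all 9 libraries, is not drawn.

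Of the phosphate transporters, Slc20a1 stood above DMSO with both inhibitors and Slc20a2 with neither. Slc20a1 (ENSMUSG00000027397, chromosome 2, 129198764 to 129211616, plus strand) had 85.6, 101 and 121 CPM in FMK libraries and 82.2, 95.3 and 85.9 CPM in OPH libraries. It had 47.3, 33.6 and 40.2 CPM in DMSO libraries, below all 6 inhibitor libraries. The log2 fold change was 1.34 ± 0.14 for FMK against DMSO. Slc20a1 rose by 1.12 ± 0.14 in OPH against DMSO, a 2.17-fold difference (95% interval 0.82 to 1.42, edgeR adjusted p = 3.41e-05), higher in 3 of 3 OPH libraries. The FMK and OPH libraries overlapped, with a difference of 0.22 ± 0.13 (95% interval -0.06 to 0.51, edgeR adjusted p = 0.356). That interval allows FMK to be slightly lower than OPH or up to 0.51 higher. A noncoding gene on the opposite strand, 9830144P21Rik, covers the 3′ end of Slc20a1 and had 0 counts in all libraries.

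Slc20a2 (ENSMUSG00000037656, chromosome 8, 22476788 to 22569612, plus strand) had 26.7, 30.9 and 32.8 CPM in FMK libraries and 24.9, 33.2 and 28.7 CPM in OPH libraries. DMSO libraries had 22.8 to 33.9 CPM, a range that held all 6 inhibitor libraries. The log2 fold change was 0.09 ± 0.17 for FMK against DMSO and 0.06 ± 0.17 for FMK against OPH (edgeR adjusted p = 0.887). OPH against DMSO gave 0.03 ± 0.17, with a 95% interval of -0.31 to 0.38 (edgeR adjusted p = 0.934).

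The enzymes that release phosphate were low or did not pass. Alpl (ENSMUSG00000028766, chromosome 4, 137741733 to 137796384, minus strand) had 8, 7 and 2 counts in FMK libraries, 15, 6 and 20 counts in OPH libraries, and 20, 7 and 6 counts in DMSO libraries. The 3 groups overlapped. Its log2 fold change was -0.85 ± 0.73 for FMK against DMSO and -1.11 ± 0.72 for FMK against OPH (95% interval -2.62 to 0.40, edgeR adjusted p = 0.392). OPH against DMSO gave 0.26 ± 0.67 (95% interval -1.14 to 1.66, edgeR adjusted p = 0.859), and the sign turned without OPH library 3 (-0.18) or without DMSO library 3 (-0.06). At this depth differences within these intervals were not detectable.

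Phospho1 (ENSMUSG00000050860, chromosome 11, 95824499 to 95832140, plus strand) had 0 counts in all 9 libraries and was not tested. A count of 0 over 3 libraries allows up to 3 counts, which is 0.166 CPM in FMK, 0.147 CPM in OPH and 0.153 CPM in DMSO libraries, for counting error only. Its 3′ end lies within Zfp652 on the same strand, which had 721 counts in FMK, 1065 in OPH and 914 in DMSO libraries, and within Abi3 on the opposite strand. Reads placed in more than 1 gene may not have been counted for Phospho1, since the counting rule is not given in the sources used here.

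Nt5e (ENSMUSG00000032420, chromosome 9, 88327197 to 88372092, plus strand) turned on 1 library. It had 47.9, 45.5 and 19.5 CPM in FMK libraries, 23.2, 20.6 and 22.4 CPM in OPH libraries, and 29.6, 26.6 and 30.2 CPM in DMSO libraries. FMK libraries 1 and 2 were the highest of all 9, and FMK library 3 was the lowest. The log2 fold change was 0.39 ± 0.27 for FMK against DMSO, and 0.70 ± 0.14 without FMK library 3. For FMK against OPH it was 0.78 ± 0.27 (edgeR adjusted p = 0.112), and it passed without FMK library 3 (1.08 ± 0.14, edgeR adjusted p = 0.000218). It also passed with DESeq2 on all libraries (adjusted p = 0.0287) and in the authors' deposited table (adjusted p = 0.0374). All OPH libraries lay below all DMSO libraries, with a log2 fold change of -0.38 ± 0.27 that did not pass (95% interval -0.99 to 0.22, edgeR adjusted p = 0.413).

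Counting the genes by comparison, 4 of the 7 tested were called in FMK against DMSO, all higher, where 20.5% of all tested genes were called (10.4% higher and 10.1% lower). Nothing is read from that share, since the comparison was used to choose the genes. In OPH against DMSO 1 of 7, Slc20a1, was called, where 16.7% of all tested genes were called (8.60% higher and 8.11% lower), and with the replicate block 2 of 7 were (Slc20a1 higher and Ank lower). For 1 of 7 that is a share near the background. In FMK against OPH 3 of 7 were called, all higher in FMK (Spp1, Enpp1 and Ank). Of all tested genes 8.86% were called there (4.66% higher and 4.20% lower). With the replicate block 2139 of 13255 genes were called, and these 3 calls stood. Nothing is read from the 3 of 7 either, since the same FMK libraries were used to choose the genes. The groups did not overlap for 4 of the 7 genes in FMK against DMSO, 2 in OPH against DMSO (Slc20a1 and Nt5e) and 3 in FMK against OPH. The same held for 35.5%, 33.7% and 27.1% of all tested genes in those comparisons. FMK against DMSO and OPH against DMSO share the DMSO libraries, and FMK against OPH shares its libraries with both. The calls of Spp1, Enpp1 and Ank in FMK against OPH, and of Slc20a1 in OPH against DMSO, stood under each of 16 other settings. These included leaving out each library of the 2 groups compared and using the libraries numbered 1 and 2 alone.

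**Figure D3:**
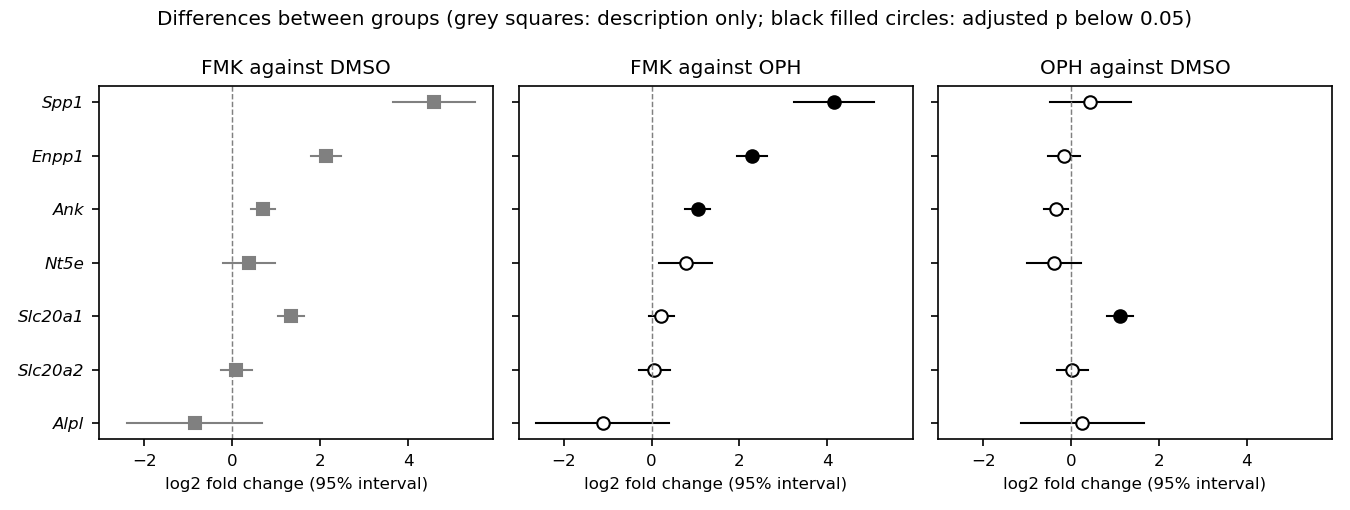
Log2 fold change (x axis) with its 95% interval for the 7 tested genes in FMK against DMSO, FMK against OPH and OPH against DMSO. Grey squares are a description without a test, and filled black circles passed an adjusted p of 0.05, which Spp1, Enpp1 and Ank did in FMK against OPH and Slc20a1 did in OPH against DMSO. FMK against OPH uses the same FMK libraries that singled out Spp1, Enpp1 and Ank.

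Other genes of the pathway were read from 6 lists made with earlier results of these libraries known. Of all tested genes, 10.4% were called higher and 10.1% lower in FMK against DMSO. The shares were 8.60% and 8.11% in OPH against DMSO, and 4.66% and 4.20% in FMK against OPH. Of 14 mineral-binding matrix proteins and their modifiers, 7 were tested. In FMK against DMSO 1 of these was higher and 2 lower, with a median log2 fold change of -0.08. The median over all tested genes was -0.0064 in that comparison, -0.0025 in OPH against DMSO and -0.0084 in FMK against OPH. In OPH against DMSO 5 were lower and 0 higher, with a median of -0.55, where 8.11% of all genes were called lower. In FMK against OPH 2 were higher and 1 lower, with a median of 0.08. Mgp, the matrix Gla protein that inhibits calcification, had 3817 ± 409 CPM in FMK, 1797 ± 87.3 CPM in OPH and 2835 ± 578 CPM in DMSO libraries (SD, n = 3). It fell by 0.66 on the log2 scale in OPH against DMSO and was 1.09 higher in FMK than in OPH. Fam20c, the kinase that phosphorylates osteopontin, fell with both inhibitors, to 10.97 ± 1.98 CPM in FMK and 19.3 ± 2.34 CPM in OPH, against 30.4 ± 0.0636 CPM in DMSO libraries (SD, n = 3). Ucma, a Gla protein of cartilage, had 12.7 ± 1.36 CPM in FMK libraries, and it fell in OPH libraries to 6.27 ± 2.66 CPM, against 29.6 ± 13.6 CPM in DMSO libraries (SD, n = 3). Vkorc1, of the vitamin K cycle that Gla proteins need, fell by 0.47 with FMK and by 0.55 with OPH. Sparc, a collagen- and mineral-binding protein, had a log2 fold change of -0.03 in FMK against DMSO and fell by 0.43 in OPH against DMSO. The Mgp rise in FMK against DMSO (0.43, edgeR adjusted p = 0.0477) was lost with the replicate block (adjusted p = 0.0609), with library size alone, and without FMK library 1 or 2 or DMSO library 1 or 2 (adjusted p = 0.0865 to 0.149). The Fam20c call in OPH against DMSO was lost without OPH library 2 (adjusted p = 0.0659).

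Of 21 further genes of pyrophosphate, phosphate and nucleotide handling, 14 were tested. In FMK against DMSO 3 were higher and 2 lower (5 lower with the replicate block), with a median of -0.04. In OPH against DMSO 1 was higher and 1 lower (3 lower with the replicate block), with a median of -0.03. Of all genes, 10.4% and 8.60% were called higher in these comparisons, and 10.1% and 8.11% lower. For 1 of 14 that is a share near the background. In FMK against OPH 0 were called by edgeR's quasi-likelihood test with the usual filter and all libraries, and 0 by limma-voom. DESeq2 and the authors' deposited table called 1 as higher, as did edgeR without a filter, with a stricter filter, with the replicate block or without FMK library 1, and 3 had an unadjusted edgeR p under 0.05 (median -0.05). Enpp3, of the same family as Enpp1, had 67 counts in FMK, 31 in OPH and 1 in DMSO libraries. Its ratio to DMSO was 72.6 with FMK (95% counting interval 12.6 to 2909) and 29.7 with OPH (4.95 to 1210). Counting intervals here use the summed counts of a group and leave out the spread between its libraries. By library Enpp3 had 33, 8 and 26 counts in FMK, 16, 14 and 1 in OPH, and 1, 0 and 0 in DMSO. Adora2b, an adenosine receptor gene, rose to 7.21 ± 3.23 CPM in FMK libraries, against 1.94 ± 0.0673 CPM in DMSO libraries (SD, n = 3). Ppa1, a cytosolic pyrophosphatase, rose by 0.45 in FMK against DMSO. Panx3, a channel of cartilage and bone cells that releases ATP, had 3 counts in FMK, 15 in OPH and 60 in DMSO libraries, and its FMK level was 0.0542 of its DMSO level (95% counting interval 0.0109 to 0.166). Entpd2, which removes phosphate from ATP, had 8 counts in FMK, 28 in OPH and 46 in DMSO libraries. Slc29a1, a nucleoside transporter, fell by 0.44 in OPH against DMSO. Panx3 and Entpd2 passed the low-count filter only through their DMSO libraries, where they were highest, so their calls as lower in FMK are a description. Calls in FMK against DMSO were lost for Ppa1 without FMK library 3 (adjusted p = 0.05045), for Panx3 without FMK library 2 (0.0514), and for Entpd2 without FMK library 1 or 2 or DMSO library 1 or 2 (0.0971 to 0.159). The Enpp3 call in OPH against DMSO was lost without OPH library 1 or 2 or DMSO library 2 or 3, with limma-voom and in the authors' deposited table (adjusted p = 0.0700 to 0.136).

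Osteopontin binds CD44 and several integrins. Of 10 receptor genes 9 were tested, and in FMK against DMSO 4 were higher and 0 lower (1 lower with the replicate block), with a median of 0.22, where 10.4% of all genes were called higher. In OPH against DMSO 1 was lower and 0 higher by edgeR, DESeq2 or limma-voom (1 had an unadjusted edgeR p under 0.05 in that direction), with a median of -0.15. In FMK against OPH 4 were higher, with a median of 0.31, where 4.66% of all genes were called higher. Cd44 had 123 ± 5.80 CPM in FMK, 77.3 ± 0.851 CPM in OPH and 66.3 ± 3.99 CPM in DMSO libraries (SD, n = 3), and it was 0.67 higher in FMK than in OPH on the log2 scale. Itgb3, the β chain that pairs with αv, went opposite ways with the inhibitors. It had 34.6 ± 0.993 CPM in FMK, 13.1 ± 1.79 CPM in OPH and 21.4 ± 2.89 CPM in DMSO libraries (SD, n = 3), with a log2 fold change of 0.69 in FMK against DMSO and -0.71 in OPH against DMSO, both called. The direct difference was 1.40 ± 0.17 (edgeR adjusted p = 5.09e-05). Itga5 and Itgb1, which form the α5β1 integrin, were higher by 0.88 and 0.36 in FMK against DMSO and by 0.76 and 0.40 in FMK against OPH. The Itgb1 calls were lost without FMK library 3, DMSO library 1 or 2, or OPH library 1 or 2, and with library size alone (adjusted p = 0.0738 to 0.0977). The Itga5 call in FMK against OPH was lost without any 1 of FMK libraries 1 to 3 or OPH libraries 1 and 2, and with library size alone (adjusted p = 0.0509 to 0.138).

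Enzymes that cleave, cross-link or dephosphorylate osteopontin divided by gene. Of 8, 6 were tested, and 3 were higher and 1 lower in FMK against DMSO (2 lower with the replicate block), 2 higher and 1 lower in OPH against DMSO (2 lower with the replicate block), and 2 higher in FMK against OPH. The medians were 0.44, -0.53 and 1.15 in that order. Of all genes, 10.4%, 8.60% and 4.66% were called higher in these comparisons, and 10.1%, 8.11% and 4.20% lower. Mmp3, a protease that cuts osteopontin, had 42.5 ± 15.9 CPM in FMK, 1.73 ± 0.547 CPM in OPH and 0.458 ± 0.137 CPM in DMSO libraries (SD, n = 3). Mmp3 passed the low-count filter only through its FMK libraries, where it was highest, so its calls as higher in FMK are a description. Tgm2, a transglutaminase that cross-links osteopontin, had 64.6 ± 15.8 CPM in FMK, 22.9 ± 6.84 CPM in OPH and 15.9 ± 2.88 CPM in DMSO libraries (SD, n = 3), and was 1.498 ± 0.23 higher in FMK than in OPH. Mmp9, a gelatinase gene high in osteoclasts, fell to 13.2 ± 4.60 CPM in FMK and 7.48 ± 1.65 CPM in OPH, against 134 ± 80.0 CPM in DMSO libraries (SD, n = 3). It is also on the osteoclast marker list, which was lower in both inhibitor groups, and the part of those cells in the Mmp9 level was not tested. Mmp2 was called higher with FMK (0.41) and with OPH (0.62). The FMK call was lost with library size alone and without FMK library 1 or 2 or DMSO library 1 or 2 (adjusted p = 0.0744 to 0.105). The Mmp3 call in OPH against DMSO was lost without DMSO library 1, 2 or 3 or OPH library 1 or 3, in the libraries numbered 1 and 2, with limma-voom and in the authors' deposited table (adjusted p = 0.0531 to 0.397).

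Annexins of matrix vesicles are calcium-binding proteins of the particles where mineral starts. Of 3 tested, 0 were called in FMK against DMSO by edgeR, DESeq2 or limma-voom, and 0 had an unadjusted edgeR p under 0.05 (median log2 fold change -0.07). In OPH against DMSO Anxa2 fell by 0.44 and Anxa5 by 0.39, with a list median of -0.39, and Anxa6 (-0.17) did not pass. Of all genes 8.11% were called lower there. Anxa2 was 0.38 higher in FMK than in OPH. It was the 1 annexin called there, and 2 were called higher with the replicate block. Of all genes 4.66% were called higher in FMK against OPH.

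Genes of mineralizing cartilage and bone gave no single direction against DMSO, and those called in FMK against OPH were all higher. Of 14, 10 were tested, with 3 higher and 1 lower in FMK against DMSO, 2 higher and 2 lower in OPH against DMSO, and 3 higher in FMK against OPH. The medians were 0.21, -0.20 and 0.30 in that order. Of all genes, 10.4%, 8.60% and 4.66% were called higher in these comparisons, and 10.1%, 8.11% and 4.20% lower. Bmp2, a bone morphogenetic protein gene, had 32.2 ± 4.81 CPM in FMK, 25.5 ± 2.50 CPM in OPH and 16.2 ± 2.22 CPM in DMSO libraries (SD, n = 3). Mmp13, the collagenase of hypertrophic cartilage, had 19.1 ± 11.3 CPM in FMK, 3.10 ± 1.87 CPM in OPH and 1.57 ± 1.15 CPM in DMSO libraries (SD, n = 3). Msx2, a homeobox gene, was called higher with FMK (0.90) and with OPH (0.82), and Col10a1, the collagen gene of hypertrophic cartilage, lower with FMK (-0.97). Col1a1 and Col1a2, of the collagen that bone mineral fills, fell by 0.43 and 0.27 in OPH against DMSO, and were higher in FMK than in OPH by 0.35 and 0.37. Runx2, the transcription factor that drives osteoblast and hypertrophic genes, had 23.1 ± 2.55 CPM in FMK, 19.3 ± 8.02 CPM in OPH and 21.1 ± 5.26 CPM in DMSO libraries (SD, n = 3) and was not called in any comparison. Some calls lay near the threshold and were lost when 1 library was left out. In FMK against DMSO, Col10a1 was lost in 8 of 16 settings (adjusted p = 0.0522 to 0.198), among them without any 1 of FMK libraries 1 to 3 or DMSO libraries 1 and 3, and Msx2 without FMK library 3 or DMSO library 1 or 2 (0.0582 to 0.0617). In OPH against DMSO, Msx2 was lost without any 1 of OPH libraries 1 to 3 or DMSO libraries 1 and 2 (0.0601 to 0.114), and Bmp2 without OPH library 3 or DMSO library 1 (0.0568 to 0.0629). In FMK against OPH, Mmp13 was lost without FMK library 2 or OPH library 2 or 3 (0.0674 to 0.127).

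**Figure D4:**
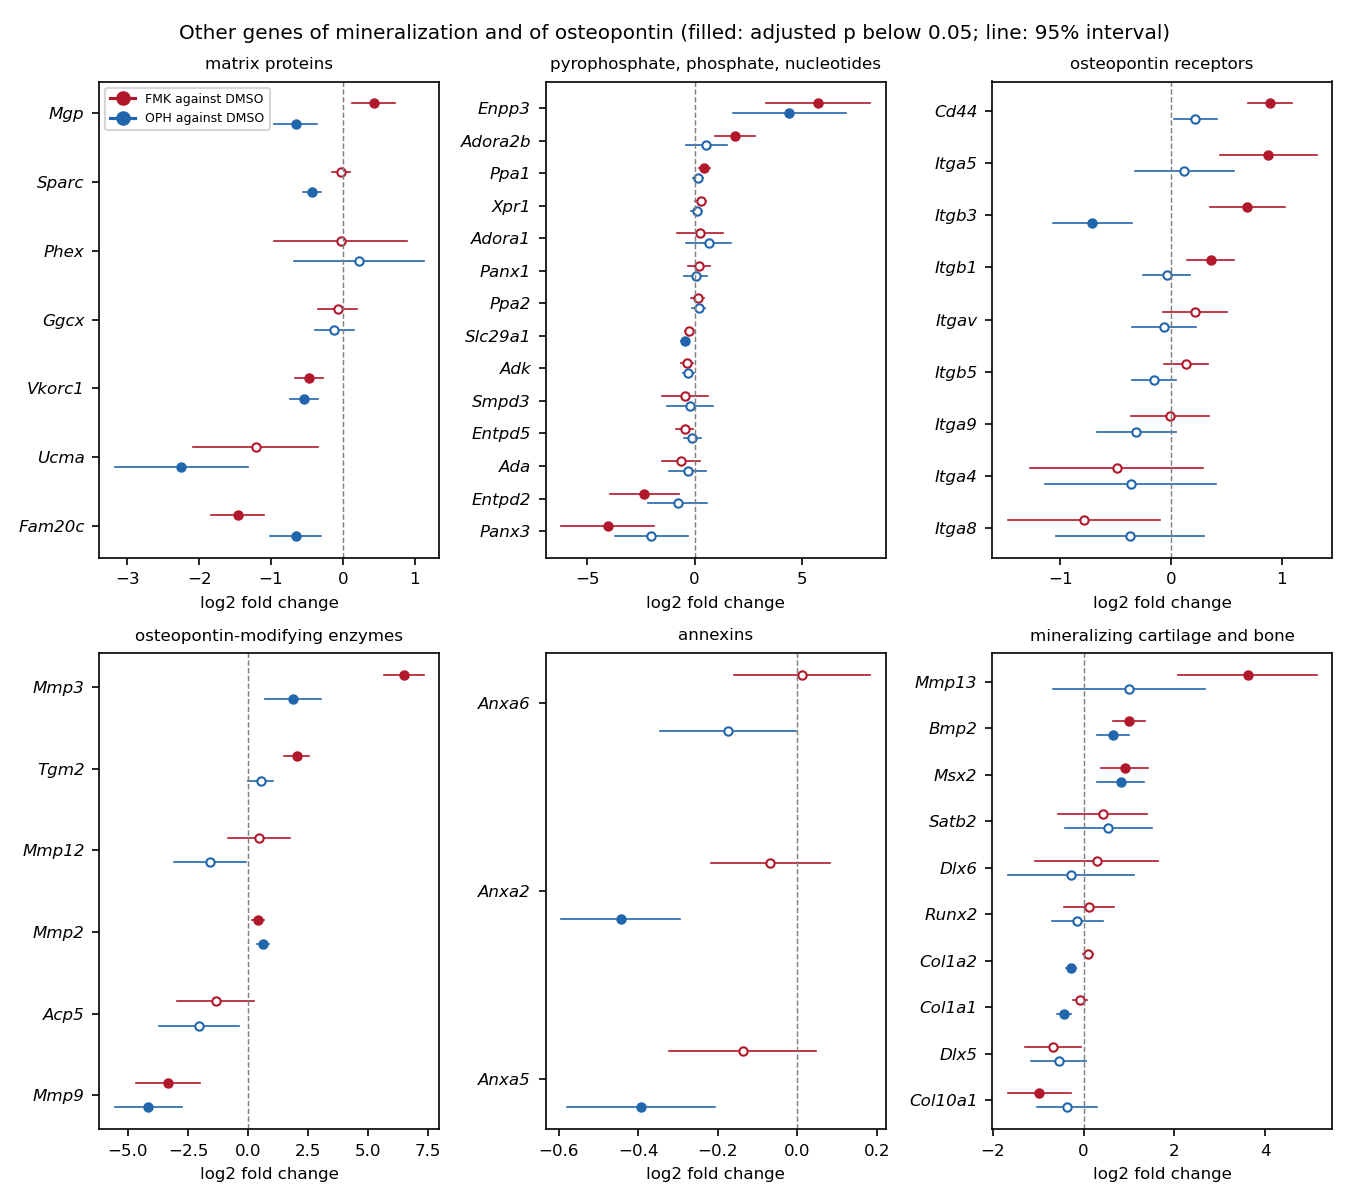
Log2 fold change (x axis) with its 95% interval for the tested genes of the 6 lists, FMK against DMSO in red above OPH against DMSO in blue, with filled points past an adjusted p of 0.05. Receptors Cd44, Itga5, Itgb3 and Itgb1 are filled on the right for FMK, and 5 matrix genes are filled on the left for OPH.

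The genes whose levels ran closest to Spp1 over the 9 libraries were sought among 13248 other tested genes. Likeness was the root mean square difference of log2 levels, each centred on its own mean, where a smaller value is closer. For Spp1 these were Prg4 (0.63), Mmp3 (0.79), Thbs4 (0.83), Ereg (0.86) and Gcnt2 (0.91), beside a median of 2.08 over all genes. Prg4, which encodes the joint lubricant lubricin, had 93.5 ± 43.3 CPM in FMK, 11.3 ± 2.37 CPM in OPH and 9.83 ± 3.93 CPM in DMSO libraries (SD, n = 3). Thbs4, a matrix thrombospondin, had 248 ± 93.5 CPM in FMK, 38.7 ± 6.80 CPM in OPH and 35.7 ± 6.32 CPM in DMSO libraries (SD, n = 3). All 5 genes, like Spp1, had their lowest FMK level in library 3, a likeness that the search over these same libraries favours. For Ereg the margin was narrow (centred log2 level 1.73 in FMK library 3 and 1.75 in FMK library 1). For Enpp1 the closest were Timp1 (0.31), Gcnt4 (0.32), Slco4a1 (0.36), Tslp (0.39) and Nrn1 (0.39), beside a median of 1.09. Timp1, an inhibitor of metalloproteinases, had 375 to 511 CPM in FMK, 102 to 142 CPM in OPH and 99.8 to 142 CPM in DMSO libraries. The 9 libraries come from 3 groups, so a likeness describes a pattern over 3 groups and carries no test.

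**Figure D5:**
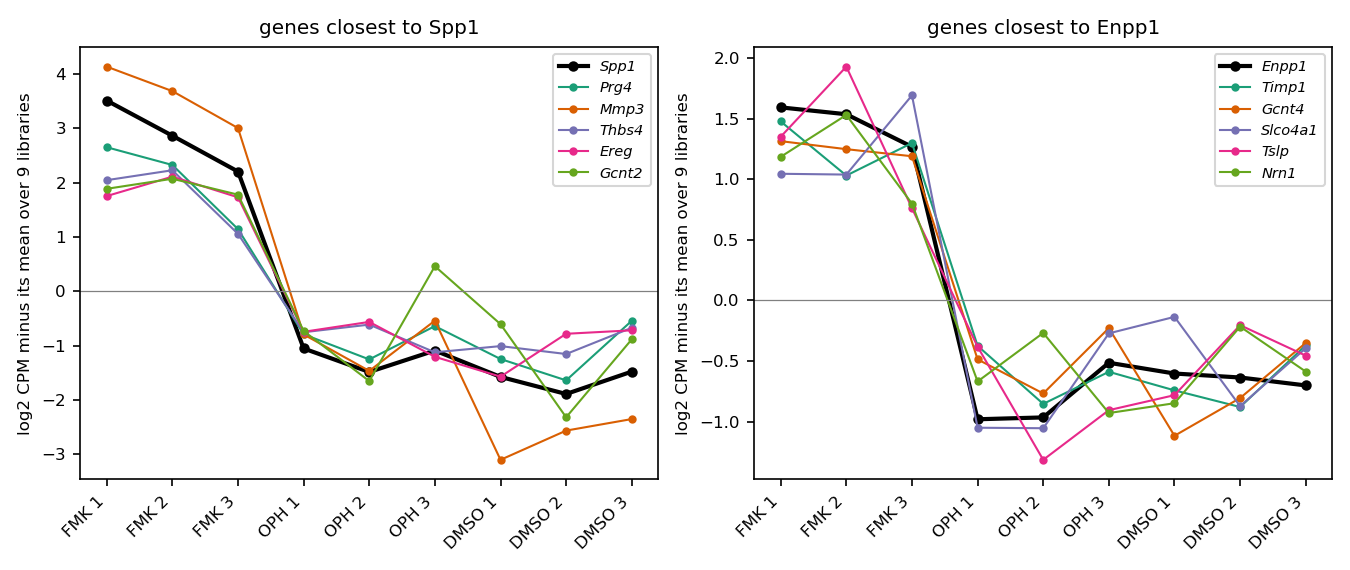
Log2 CPM of each gene minus its mean over the 9 libraries (y axis), by library (x axis), for Spp1 (left) and Enpp1 (right) in black and the 5 closest genes of each in colour, with lines joining 1 gene's values. Levels are high in the FMK libraries and low in the OPH and DMSO libraries, and Mmp3 lies lower in DMSO than in OPH libraries.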

How the data were processed

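RNA of 9 micromass cultures was read as transcript 3′ ends (QuantSeq 3′ mRNA-Seq FWD kit, per the labels' protocols). Reads were handled with FastQC, MultiQC, cutadapt, STAR and DESeq2 and the build mm10, per the submitters' processing notes; no source used here gives versions, annotation or the counting rule. The deposited table holds raw counts per gene, which the authors left unnormalized, with group sums. Per the file headers, it also holds the authors' DESeq2 log2 fold changes, the Wald statistic (a score) and p-values. The authors' contrasts with DMSO had DMSO on top, and their sign was turned here.

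Counts were fitted with edgeR 4.0.16 in R 4.3.3: filterByExpr (minimum count 10), TMM scaling, robust quasi-likelihood fit of all 9 libraries, 2-sided tests, Benjamini-Hochberg adjustment over 13255 genes, threshold 0.05. CPM are relative to TMM-scaled library size. Errors of fold changes are |log2 fold change| divided by the square root of F. Library pairs of a group were checked for copies and none was found. Members and lists were chosen with earlier results of these data known; named list genes are up to 5 of smallest p per comparison. For the closest profiles, 0.5 was added to each count before scaling to library size and taking the log.

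Libraries with the same number deviated together: over genes, correlations of deviations from the group mean were 0.228, 0.108 and 0.230 for FMK with DMSO and 0.257, 0.149 and 0.314 for OPH with DMSO. The numbers were taken to pair these groups, which would pair FMK with OPH libraries as well. For the contrasts with DMSO, the fit with replicate block is given where it changes a call. The labels call the libraries biological replicates without naming separate cultures or litters, so p-values measure the spread between these libraries. Those of the fit without the block leave the pairing out.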

Additional observations from a re-analysis of the deposited data

How the results depend on the processing

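There were 16 other settings: other scalings, filters and tools, the replicate block, and the libraries numbered 1 and 2 alone. The rest used the 2 groups compared alone, or left out 1 library of those groups at a time. Under all of them, Spp1, Enpp1 and Ank kept their direction and call in FMK against OPH, as did Slc20a1 in OPH against DMSO. The settings reuse the FMK libraries that singled out Spp1, Enpp1 and Ank, so those calls are not independent of how the genes were chosen. The replicate block raised the members called in OPH against DMSO to 2. Pairing by number would also join FMK with OPH libraries, whose same-numbered deviations correlated at 0.225, 0.0872 and 0.186. Across the groups, 9 of 9 libraries correlated best with a library of their own number. FMK against OPH values given without the block leave this pairing out. The block raised the genes called in that comparison to 2139, against 1175 without it. Leaving out 1 library gave 571 to 1050 genes called in FMK against OPH, 1979 to 2512 in FMK against DMSO and 1486 to 1779 in OPH against DMSO. Genes near 0 changed sign with no call: Slc20a2 was -0.0080 in FMK against DMSO and -0.049 in FMK against OPH with library size alone, and -0.011 in FMK against OPH in the libraries numbered 1 and 2. Without 1 library it ran over -0.038 to 0.25 in FMK against DMSO, -0.099 to 0.19 in OPH against DMSO and -0.040 to 0.17 in FMK against OPH. Alpl in OPH against DMSO was -0.50 in the libraries numbered 1 and 2, and -0.18 to 1.02 without 1 library. Library size alone moved the median of all genes to -0.11 in FMK against DMSO and -0.12 in FMK against OPH. The cause of these changes was not tested. The 2 to 20 counts of Alpl per library limit what could be seen of it.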
